A study of Mus musculus with 38 samples.

Results

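Papillary thyroid carcinoma (PTC) was compared with benign hyperplastic lesions (BHL) of thyroids that expressed the same oncogene. The comparison rests on 14 of the 38 mice of the study, namely all 10 mice labelled PTC and all 4 BHL mice labelled *BRAF*(+), chosen by lesion and *BRAF* status alone. Every one of these mice carried a transgene of human *BRAF* cDNA with the V600E mutation behind the bovine thyroglobulin promoter, which is active in thyroid follicular cells, on the FVB/N background. The PTC mice were 8 females and 2 males aged 6 to 21 months (median 11), and the *BRAF*(+) BHL mice were 3 females and 1 male aged 4 to 11 months (median 10.5). The 3 PTC mice under 9 months were of the transgenic line tg2. The remaining PTC mice and all *BRAF*(+) BHL mice were of the line tg3, so that age and line cannot be told apart within PTC. The study reported more mutant BRAF protein in tg2 than in tg3, so the level of the oncogene need not be matched between the lesions. Ages are those of the labels, from which the age classes of the study's methods differ for older PTC and BL mice but not for the young ones. For reference the text also gives 10 *BRAF*(+) borderline lesions (BL, 4 to 21 months), 5 *BRAF*(+) asymptomatic thyroids (AT, 7 to 11 months), and 4 BHL (6 to 24 months) and 5 AT (4 to 12 months) without the mutated transcript. The lesion was read by histology on one part of the gland and RNA was taken from the other part, with 1 GeneChip Mouse Gene 1.0 ST array per mouse.

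The V600E substitution leaves the BRAF kinase active without an upstream signal, and the kinase drives MEK and ERK, which switch on transcription factors of the ETS family, cyclin D1 and a set of feedback inhibitors. In the thyroid this pathway is known for turning follicular cells away from hormone synthesis and for giving rise to papillary tumours. Hyperplastic lesions are overgrowths of follicular cells without the nuclear features of carcinoma, so a comparison of both lesions asks what separates malignant from benign growth where the oncogene is present in both.

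Signals are RMA values on the log2 scale, where a difference of 1 is a doubling of signal. Of 35556 probe sets, 4388 passed a filter on flat signals, which asks that 20% or more of the 38 mice lie 1.5-fold or more away from the median, and these were tested with limma in a model of 6 groups and sex. Array medians of the 14 mice lay between 6.05 and 6.16. Thyroid identity was similar in all of them: thyroglobulin (*Tg*) lay between 13.48 and 13.66, *Pax8* between 11.00 and 11.52, *Nkx2-1* between 9.32 and 10.33, and *Foxe1* between 7.73 and 8.56. Pendrin (*Slc26a4*) was low, at 4.34 to 4.91, in all mice but PTC M_347, where it was 7.62. Mouse *Braf* itself, whose probe set may read the human transgene only in part, was 9.61 to 10.07 in *BRAF*(+) BHL and 9.49 to 10.33 in PTC. The means differed by -0.05 (PTC minus BHL, two-sided exact permutation test, p = 0.71, n = 10 and 4), and the sign was turned without the 3 young PTC mice, at 0.06. Mean *Braf* signal was 9.70 in BL, 9.38 in *BRAF*(+) AT, and 9.10 and 9.13 in *BRAF*(-) BHL and AT.

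No probe set separated PTC from *BRAF*(+) BHL at an adjusted p under 0.05 (0 of 4388, 0%). The lowest adjusted p was 0.772 (limma, Benjamini-Hochberg). At an unadjusted p under 0.05 there were 202 probe sets (4.6% of those tested), 180 of them higher (4.1%) and 22 lower (0.501%) in PTC, and an exact permutation test of ranks found 120. Of the 1865 tested probe sets with a listed gene, 29 (1.55%) had an unadjusted p under 0.05, most of them higher in PTC (26, or 1.39%), against 173 of 2523 (6.86%) with no listed gene (154 higher, or 6.1%). A difference of 2-fold or more in either direction was seen for 75 probe sets (1.71%). The intervals bound many of these differences. For 3207 probe sets (73.1%), and for 1437 (77.1%) of those with a listed gene, the 95% interval of the difference lay within 2-fold in both directions. For the other probe sets a difference above 2-fold was not resolved with 10 and 4 mice. Since whole tissue was measured, fewer cells of a type and less RNA per cell cannot be told apart in any value given here.

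Among probe sets with a listed gene the median size of the log2 difference was 0.17 between PTC and *BRAF*(+) BHL, 0.57 between *BRAF*(+) BHL and *BRAF*(+) AT, and 0.54 between PTC and *BRAF*(+) AT. The median standard errors were close, at 0.28 for the first and 0.32 for the second of these. Between *BRAF*(+) BHL and AT the same model called 228 probe sets higher (5.2%) and 136 lower (3.1%) in BHL, together 8.3% of those tested and 29.3% at an unadjusted p under 0.05. Their total was unstable: without AT mouse M_779 it was 0, without AT M_1003 it was 502, and without BHL M_942, M_943 and M_997 in turn it was 16, 13 and 17. M_779, of 7 months, was the only *BRAF*(+) AT mouse under 9 months and the only one of line tg2. The other *BRAF*(+) AT mice were of tg3, so that age and line cannot be told apart there. Over all 4388 probe sets a PTC array correlated with a *BRAF*(+) BHL array at a median r of 0.908 (40 pairs), as with another PTC array at 0.894 (45 pairs). The median r of *BRAF*(+) BHL with *BRAF*(+) AT was 0.859 (20 pairs). These correlations run across probe sets, share arrays, and are given as a description.

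**Figure D1:**
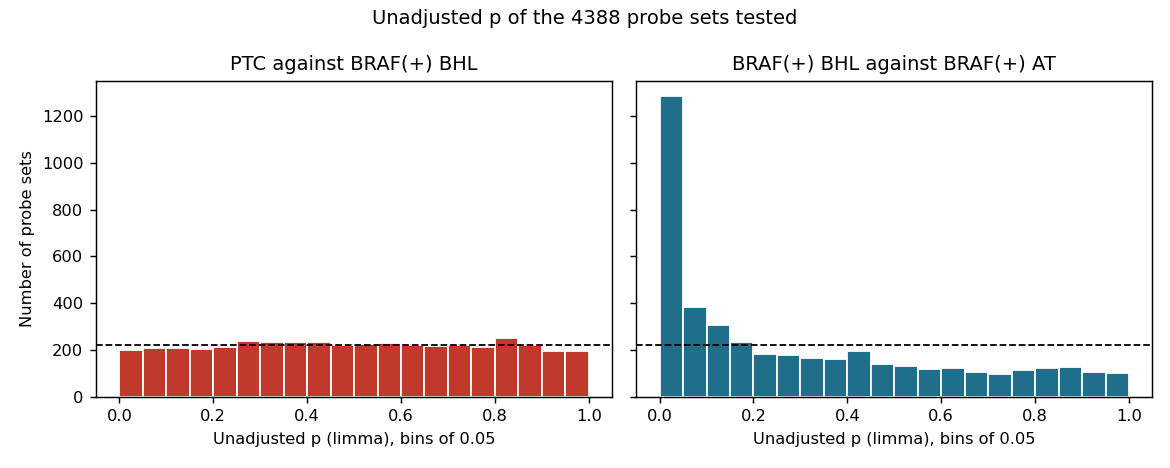
Number of probe sets (vertical axis) in each bin of 0.05 of the unadjusted p (horizontal axis), for PTC against BRAF(+) BHL (left, red) and BRAF(+) BHL against BRAF(+) AT (right, blue); the dashed line is the mean height of the bins. The lowest bin holds 202 probe sets on the left and 1285 on the right, of 4388 tested in each.

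Over the 4388 filtered probe sets, the plot of unadjusted p-values is flat for PTC against *BRAF*(+) BHL. For *BRAF*(+) BHL against *BRAF*(+) AT it is piled up at its low end. The flat shape is that of the filtered set. Without the filter, 2617 of 35556 probe sets had an unadjusted p under 0.05 between PTC and *BRAF*(+) BHL, with 0 called. Of the 4388, 3140 probe sets (71.6%) had a mean difference above 0. The median was 0.14 over all probe sets tested, 0.12 with a listed gene and 0.16 with none. The medians of gene lists below are to be read against the value of 0.14. The values of the 10 PTC and the 4 BHL mice did not overlap at 10 probe sets (0.228% of 4388; 0.315% of all 35556), 8 of them higher and 2 lower in PTC. Of these 10, 9 have no listed gene and 1 is a probe set of *Trdn*, a protein of the calcium release complex of muscle, with a difference of 1.15. It is not the probe set of highest mean that represents *Trdn* here. By their representative probe sets, 0 of the 1570 genes tested had values without overlap.

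Among ERK targets and feedback genes, the 10 tested members (19 measured) had differences from -0.20 to 0.05, with a median of -0.03 and 0 called. Cyclin D1 (*Ccnd1*), which carries cells into S phase, was 11.09, 11.03, 10.69 and 10.98 in *BRAF*(+) BHL mice M_942, M_943, M_958 and M_997. In PTC it ran from 10.41 through a median of 11.05 to 11.16. The groups overlapped almost completely, with a difference of 0.01 (SE 0.29, 95% interval -0.58 to 0.59), whereas the means were 10.00 in *BRAF*(+) AT and 9.09 in *BRAF*(-) AT. Means of the ETS factors were close in both lesions. *Etv1* had means of 9.43 ± 0.22 (SD, n = 10) in PTC and 9.45 ± 0.30 (n = 4) in BHL, *Etv4* 6.69 ± 0.23 and 6.66 ± 0.12, and *Etv5* 8.59 ± 0.29 and 8.58 ± 0.29. Their intervals for PTC minus BHL were -0.52 to 0.46, -0.39 to 0.44 and -0.47 to 0.45. For *Spred1*, an inhibitor of RAS and RAF, the interval was -0.55 to 0.44, and for *Dusp6*, the phosphatase that acts on ERK, it was -0.42 to 0.38. Against *BRAF*(+) AT the 3 ETS factors and *Spred1* passed the threshold in *BRAF*(+) BHL, at 1.03 (*Etv1*), 0.72 (*Etv4*), 0.80 (*Etv5*) and 0.96 (*Spred1*), calls that belong to the unstable count above. *Dusp5*, a nuclear ERK phosphatase, was 8.23, 8.26 and 8.24 in the 3 older BHL mice and 7.29 in M_958, and 7.14 to 8.12 in PTC (median 7.89). All 3 older BHL mice lay above every PTC mouse, and M_958, the male of 4 months, lay below 9 of the 10 (difference -0.20, SE 0.25). No member of the RAF, MEK and ERK cascade itself passed the filter, and its 7 measured members had a median difference of 0.04. Of the 6 immediate early genes tested, which respond within minutes to growth signals, 3 were above and 3 below 0, from *Fosb* at -0.24 to *Atf3* at 0.17. The zinc finger factor *Egr1* was 9.63 to 9.84 in the 3 older BHL mice, 8.20 in M_958, and 8.44 to 9.83 in PTC.

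Of the 8 tested genes of thyroid differentiation (21 measured), 7 had a higher mean in PTC, beside 71.6% of all probe sets tested. Their median of 0.11 (0.03 over all measured) lay below the median of all probe sets. *Dio1*, the type 1 deiodinase that converts thyroxine to its active form, was 7.80, 8.05, 10.18 and 6.77 in BHL mice M_942, M_943, M_958 and M_997. In PTC it was 7.71 to 10.65 with a median of 8.99. The groups overlapped, since M_958 lay above 8 of the 10 PTC mice, but the 3 older BHL mice were at the low end (difference 1.03, SE 0.50, unadjusted p = 0.0469, adjusted p = 0.985, limma), and without BHL M_997 the difference was 0.65. Young mice were high in both groups: PTC mice M_686, M_700 and M_884 had a mean of 10.31 ± 0.31 (SD, n = 3) for *Dio1*, and the 7 older ones 8.68 ± 0.59. All 14 mice lay below the *BRAF*(-) AT mean of 11.29. The iodide symporter *Slc5a5* was 8.51 to 10.18 in BHL and 7.87 to 10.71 in PTC, with a difference of 0.49 (SE 0.42). The monocarboxylate transporter *Slc5a8* had a difference of 0.53 (SE 0.43), with 9.99 in PTC M_700 above all others. The TSH receptor (*Tshr*) differed by 0.03 (95% interval -0.53 to 0.60), the oxidase *Duox2* by 0.02 and its maturation factor *Duoxa1* by -0.29.

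**Figure D2:**
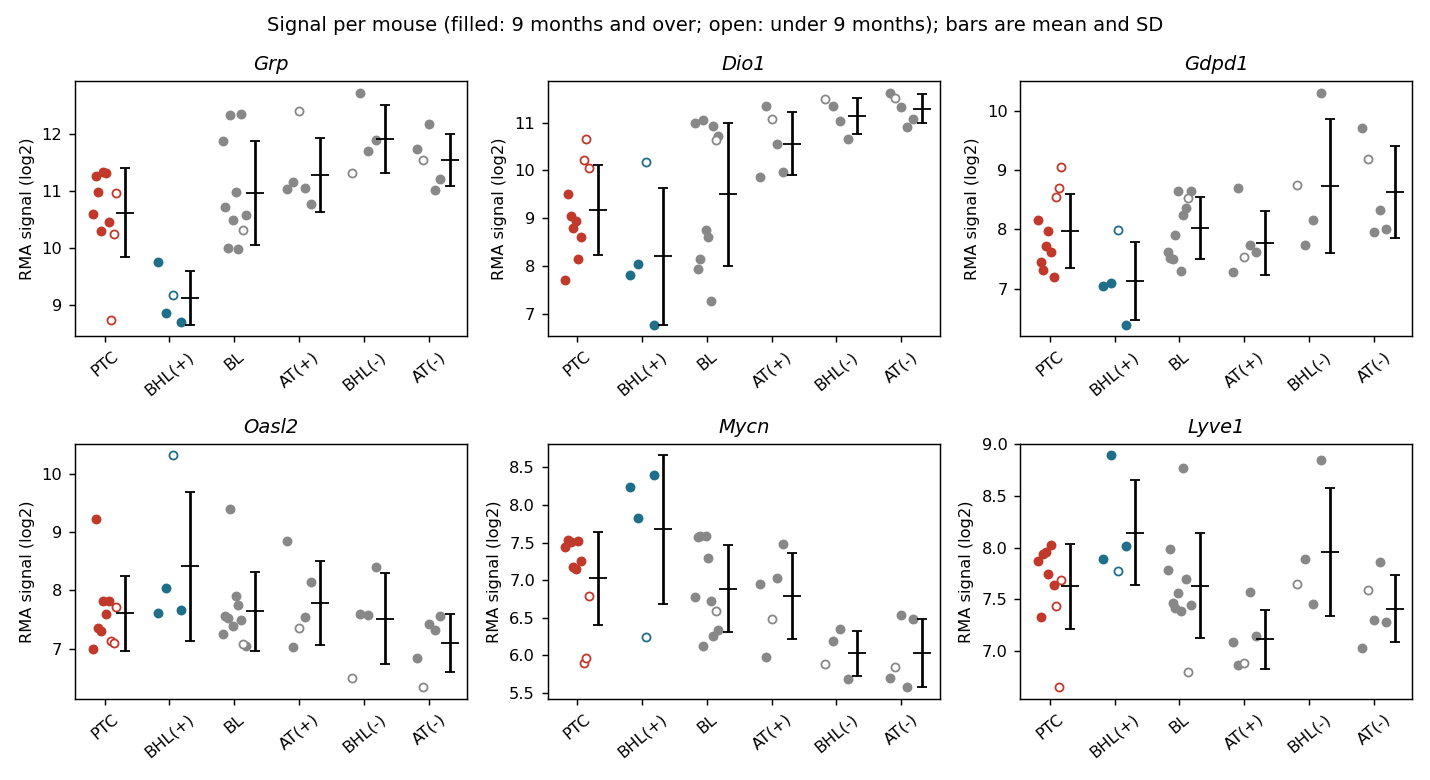
RMA signal on a log2 scale (vertical axis) of 6 genes in each mouse of the 6 groups, PTC in red, BRAF(+) BHL in blue and the other groups in grey; filled points are mice of 9 months and over, open points younger mice, bars the mean and SD. In Grp, 9 of the 10 PTC mice lie above the 4 BRAF(+) BHL mice, and in Mycn the 3 older BRAF(+) BHL mice lie above all PTC mice.

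The gene nearest to a difference was *Grp*, which encodes gastrin-releasing peptide, a neuropeptide that also stimulates growth of epithelial cells. Its signal was 9.76, 8.86, 9.18 and 8.71 in *BRAF*(+) BHL mice M_942, M_943, M_958 and M_997, and 8.75 to 11.34 in PTC with a median of 10.78. All PTC mice but M_686, at 8.75, lay above the highest BHL mouse. The difference was 1.46 (SE 0.39, 95% interval 0.67 to 2.26, unadjusted p = 0.000591), and it did not pass the threshold after adjustment (adjusted p = 0.772, limma). It was 1.27 to 1.79 over the alternative settings, with adjusted p from 0.145 to 1. In the other groups the mean of *Grp* was nearer to that of PTC: it was 9.13 ± 0.47 (SD, n = 4) in *BRAF*(+) BHL, 10.62 ± 0.78 in PTC, 10.96 ± 0.91 in BL, 11.28 ± 0.64 in *BRAF*(+) AT and 11.91 ± 0.59 in *BRAF*(-) BHL. Against *BRAF*(+) AT, *Grp* was called lower in *BRAF*(+) BHL (difference -2.13, adjusted p = 0.0127, limma). *Grp* stands on the list of C cells, the calcitonin cells of the gland, of which 5 of 7 measured members were tested. The mean of that list per mouse, which includes *Grp* itself and *Chga*, was 5.75 to 6.38 in BHL and 5.73 to 7.23 in PTC. It was highest in PTC mice M_884, M_359 and M_358, at 7.23, 6.95 and 6.73, which also had high *Pth* and *Chga* (below). It is therefore no separate measure of C cells, and their part in the difference of *Grp* was not tested. Besides *Chga*, which is given with the parathyroid markers below, the secretogranins *Scg2* and *Scg3* differed between PTC and BHL by 0.07 (SE 0.45) and 0.22 (SE 0.48), and the synaptic protein *Snap25* by -0.16.

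In addition to *Grp* and *Dio1*, 12 genes had a higher mean in PTC at an unadjusted p under 0.05, and none passed after adjustment (adjusted p = 0.985 for each, limma). They are described because fewer than 15 genes in a direction passed the threshold, and none of their group values separated completely. Muscle glycogen phosphorylase (*Pygm*) was 6.92 to 8.45 in BHL and 7.00 to 9.38 in PTC (difference 1.13, SE 0.49). It belongs to the muscle list, and its means of 9.26 in *BRAF*(+) AT and 10.09 in *BRAF*(-) AT were above that of PTC, 8.64. *Gdpd1*, a phosphodiesterase of glycerolipids, was 7.05, 7.10, 7.99 and 6.40 in BHL and 7.19 to 9.05 in PTC (difference 0.88, SE 0.32). The 3 young PTC mice held its 3 highest values, between 8.55 and 9.05, and M_958 the highest of BHL.

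Some of these genes had high values in young or male mice, though not in all such mice. PTC mice M_686 and M_700 are young, male and of line tg2, and the parts of age, sex and line were not tested. *Setdb2*, a histone lysine methyltransferase, was 10.29 and 9.49 in the male PTC mice M_686 and M_700, 7.49 in the male BHL mouse M_958, and 7.31 or lower in the 11 females. With females alone the difference was 0.44 in place of 0.83, and without the 3 young PTC mice 0.30. *Ttc39c* was likewise highest in M_686 and M_700, at 9.23 and 8.84, and its difference was 0.42 in females and 0.72 in all mice. The butyrylcholinesterase gene *Bche* was 5.13, 5.25 and 5.22 in the older BHL mice, 6.65 in M_958 and 5.27 to 7.82 in PTC, with all 10 PTC mice above the 3 older BHL mice (difference 0.66, SE 0.27). The galactosidase-like *Glb1l2* and the X-linked *Arxes2*, a gene of adipocytes, had differences of 0.66 (SE 0.23) and 0.66 (SE 0.24). Of the 10 PTC mice, 5 for *Glb1l2* and 7 for *Arxes2* lay above all BHL mice.

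The remaining 5 of these genes encode small nucleolar RNAs, which guide the processing and chemical modification of ribosomal RNA. *Snord118*, the U8 RNA needed for maturation of the large ribosomal subunit, was 4.26 to 4.73 in BHL and 4.19 to 8.01 in PTC with a median of 5.39. It was above 5.9 in PTC mice M_348, M_358, M_359, M_364 and M_415 and below 4.9 in the other PTC mice (difference 1.01, SE 0.49, and 1.54 without the 3 young PTC mice). *Snora31* (0.73, SE 0.36), *Snora69* (0.61, SE 0.25), *Snord42a* (0.56, SE 0.24) and *Snora20* (0.49, SE 0.22) made up the others. The class as a whole was looked at after these values were seen. Of 51 small nucleolar RNA genes measured, 26 were tested, 24 of them with a difference above 0, beside 71.6% of all probe sets tested, and the median was 0.41 against 0.14. The 5 named above were those with an unadjusted p under 0.05, beside 4.1% of all probe sets tested that were higher at that p; they are the genes for which the class was looked at, and 0 were called. These RNAs are short and partly lie inside host genes, so the signal of a host transcript cannot be told apart from them.

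Only *Oasl2*, *Mycn* and *Lyve1* among the 1570 genes tested had a lower mean in PTC at an unadjusted p under 0.05 (adjusted p = 0.985 for each, limma). *Mycn*, a transcription factor of the MYC family, was 8.23, 7.83, 6.24 and 8.40 in BHL mice M_942, M_943, M_958 and M_997 and 5.89 to 7.54 in PTC with a median of 7.21 (difference -0.70, SE 0.28). Signal was low in the young of both lesions, at 5.89, 5.96 and 6.79 in PTC mice M_686, M_700 and M_884 and 6.24 in M_958. In mice of 9 months and over, *Mycn* was 8.15 ± 0.29 (SD, n = 3) in BHL and 7.37 ± 0.17 (n = 7) in PTC without overlap, but a fit of mice of that age alone, chosen after these values were seen, gave a difference of -0.79 with an adjusted p of 0.992 (limma). The means of *Mycn* were 6.88 in BL, 6.78 in *BRAF*(+) AT and 6.03 in both *BRAF*(-) groups. *Lyve1*, the hyaluronan receptor of lymphatic vessels and some macrophages, was 7.77 to 8.89 in BHL and 6.65 to 8.03 in PTC, with 6 of 10 PTC mice below all BHL mice (difference -0.54, SE 0.25, and -0.33 without BHL M_943). The interferon-induced *Oasl2* is described with its list below.

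**Figure D3:**
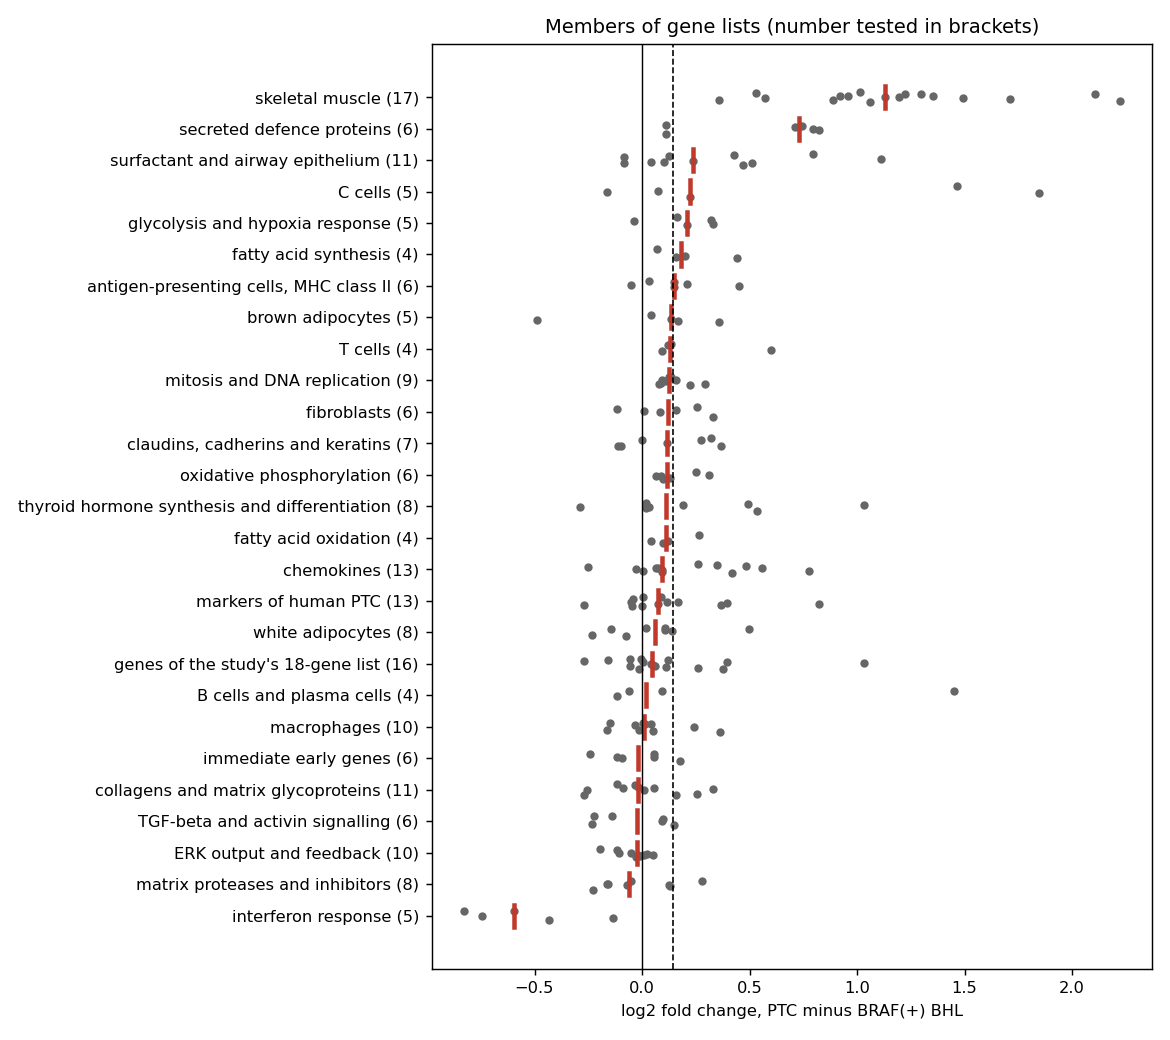
Log2 difference of each tested member (points) of the gene lists with at least 4 tested members, PTC minus BRAF(+) BHL (horizontal axis); red bars are list medians and the dashed line is the median of all 4388 probe sets at 0.14. Skeletal muscle stands highest at a median of 1.13 and the interferon response lowest at -0.59, and 0 members are called in any list.

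The list of surfactant and airway genes gave no call. *Sftpb*, which spreads the surfactant film, was 12.54 to 12.89 in *BRAF*(+) BHL and 12.21 to 12.97 in PTC, against means of 11.61 in *BRAF*(+) AT and 6.27 in *BRAF*(-) AT. The difference between both lesions was -0.08 (95% interval -0.68 to 0.51). *Sftpd*, a collectin that binds microbes, was 9.90 ± 0.93 (SD, n = 4) in BHL and 10.09 ± 0.94 (n = 10) in PTC. It was highest in PTC mice M_686 and M_700, at 12.06 and 11.17, and in M_958, at 11.27, which are the 3 males. All 3 are also under 9 months, and M_686 and M_700 are of line tg2. The parts of sex, age and line were not tested. *Sftpc*, another surfactant protein, did not pass the filter and was at 4.49 or lower in all 14 mice. Over the list, 11 of 15 members were tested, with a median difference of 0.24 (0.12 over all 15) and *Bpifa1*, an airway defence protein, at 1.11 (SE 0.93). The list mean per mouse was 9.11 in PTC M_1002 and 8.50 in M_686, with a PTC median of 7.65 and 7.13 to 8.18 in BHL. The 6 tested secreted defence proteins (13 measured) all had a difference above 0, with 0 called; their median was 0.73, but over all 13 measured members it was 0.11. Lipocalin 2 (*Lcn2*), which withholds iron from bacteria, was 10.30, 10.78, 11.93 and 9.57 in BHL and 10.42 to 12.57 in PTC (difference 0.71, SE 0.40, 95% interval -0.10 to 1.52). Lactoferrin (*Ltf*) reached 12.07 in PTC M_1002 and was at most 8.89 elsewhere in both groups (0.83, SE 0.88). The mean of the defence list was also highest in M_1002, at 9.25, with a PTC median of 7.78 and at most 8.28 in BHL. The mean of squamous epithelium markers was 7.175 in M_1002, with a PTC median of 5.34 and at most 5.83 in BHL. The part of this mouse in the differences of these lists was not tested. The chitinase-like *Chil1* had means of 11.51 and 11.38 in PTC and BHL and 5.23 in *BRAF*(-) AT, with a difference of 0.11.

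Genes used as markers of human PTC and the 18 genes that the study selected gave no call between both lesions. The 18 were taken from genes that differed by *BRAF* status in mouse thyroids without carcinoma, and then by comparisons of human tumours. The first step used the 4 *BRAF*(+) BHL mice, so the list is not independent of them. Of its 16 tested members 1, *Dio1*, had an unadjusted p under 0.05 and 0 were called, with a median of 0.05. Fibronectin (*Fn1*) was 11.86, 12.25, 10.64 and 12.07 in BHL and 10.12 to 12.12 in PTC with a median of 11.72 (difference -0.27, SE 0.27). The receptor kinase *Met* differed by 0.00 (95% interval -0.40 to 0.40), *Erbb3* by 0.04 and the ephrin receptor *Epha2* by 0.05. *Slc34a2*, a phosphate transporter, was 8.15 to 8.68 in BHL and 6.66 to 9.47 in PTC, with 7 of 10 PTC mice above all BHL mice and M_700 below them (difference 0.40, SE 0.36). Of 13 tested PTC markers 8 were above 0 and the median was 0.08. Keratin 19 (*Krt19*) differed by less than 0.01 in size, with an interval of -0.56 to 0.56, and the chromatin protein *Hmga2* by -0.04 (-0.69 to 0.60), and the protease inhibitor *Timp1* by -0.05 (-0.93 to 0.83).

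Proliferation and metabolism gave no call either. All 9 tested genes of mitosis and DNA replication (28 measured) had a difference above 0, from 0.08 to 0.29, with a median of 0.13 (0.05 over all measured) against 0.14 for all probe sets and 0 called. The proliferation antigen *Mki67* was 6.83, 7.33, 6.49 and 6.90 in BHL and 6.37 to 7.43 in PTC (difference 0.11, 95% interval -0.58 to 0.80). Topoisomerase *Top2a*, which untangles replicated DNA, was 5.70 to 6.19 in BHL and 5.57 to 6.93 in PTC, with 7 of 10 PTC mice above all BHL mice (difference 0.29, SE 0.35). The 6 tested subunits of oxidative phosphorylation had a median of 0.11, and 5 genes of glycolysis and hypoxia 0.21. The 11 tested collagens and matrix glycoproteins had a median of -0.02, with periostin (*Postn*) at 0.33 and thrombospondin 2 (*Thbs2*) at -0.25. Collagen I (*Col1a1*) was 7.79 in M_958 and 9.51 to 10.28 in the other BHL mice, and 8.22 to 10.44 in PTC. Matrix proteases (8 tested) and TGF-beta signalling (6 tested) had medians of -0.06 and -0.02.

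Immune markers gave no call. The 10 tested macrophage markers had a median of 0.01, with *Cd68* at 0.01 (95% interval -0.56 to 0.59). T cell markers had 4 tested members and a median of 0.13. The chemokine *Cxcl9*, which attracts activated T cells, was 5.55, 6.03, 5.87 and 5.88 in BHL and 5.30 to 7.59 in PTC. All PTC mice but M_358 were above the BHL range, with a difference of 0.78 (SE 0.45, adjusted p = 0.985, limma). B cell and plasma cell markers had 4 tested members with a median of 0.02, 2 of them below 0. They ran from *Fcer2a* at -0.12 and *Cd79a* at -0.06 through *Mzb1* at 0.09 to *Jchain*, whose standard error was the widest of the 4. *Jchain*, which joins antibody molecules in plasma cells, ran from 4.49 to 8.71 in BHL and from 4.98 to 10.60 in PTC (1.45, SE 0.92).

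The interferon response was, among lists with at least 4 tested members, the one with the lowest median, -0.59 (-0.39 over all measured), and all its 5 tested members (10 measured) were below 0, with 1 at an unadjusted p under 0.05 and 0 called. Interferon genes are switched on through short elements in their promoters, where repeated GAAA blocks are bound by interferon regulatory factors. The windows of *Ifit1* and *Ifit3*, both antiviral RNA-binding proteins, are shown since each holds the element GAAANNGAAA, or TTTCNNTTTC on the other strand, and both genes had their highest signals in the same mice, M_958 and M_347. A stretch of 120 bases of each is printed. Bases are from the plus strand of RefSeq promoters on GRCm38.p6, at chr19:34640724-34640843 for *Ifit1* and chr19:34583327-34583446 for *Ifit3*, and capitals mark each match.
Ifit1: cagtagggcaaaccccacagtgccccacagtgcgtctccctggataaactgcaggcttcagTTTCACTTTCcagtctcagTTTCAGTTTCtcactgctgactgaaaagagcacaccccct
Ifit3: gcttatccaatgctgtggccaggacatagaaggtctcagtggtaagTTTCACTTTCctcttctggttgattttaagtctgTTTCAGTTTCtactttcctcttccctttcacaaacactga
Of 32851 promoter windows of 300 bases (250 before and 50 after the start), 1131 (3.44%) hold this element on either strand. It was in 5 of 9 windows (55.6%) of measured members of the list, *Oasl2* and *Irf7* not among them. A match describes these letters and is no evidence of a bound site.

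The highest signals of the list were in a single mouse of each lesion. *Ifit1* was 5.98, 6.75, 9.17 and 5.48 in BHL mice M_942, M_943, M_958 and M_997, and 8.53 in PTC M_347 against 5.26 to 6.60 in the other PTC mice. *Oasl2* was 7.62, 8.05, 10.31 and 7.66 in the same BHL mice, 9.22 in M_347, and 7.00 to 7.83 in the other PTC mice (difference -0.83, SE 0.41). The transcription factor *Irf7* was 8.51 in M_958 and 8.68 in M_347 and 6.89 or lower elsewhere. The list mean per mouse was 8.00 in M_958 and 7.89 in M_347, and at most 6.50 in the other 12 mice. Without M_958 the difference of *Oasl2* was -0.005 and that of *Ifit1* was 0.18, so that the low values of both in PTC relative to BHL rested on M_958. M_958 is the male of 4 months, so that sex and age cannot be told apart for it, and M_347 is a female of 12 months that also had the high *Slc26a4* signal.

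**Figure D4:**
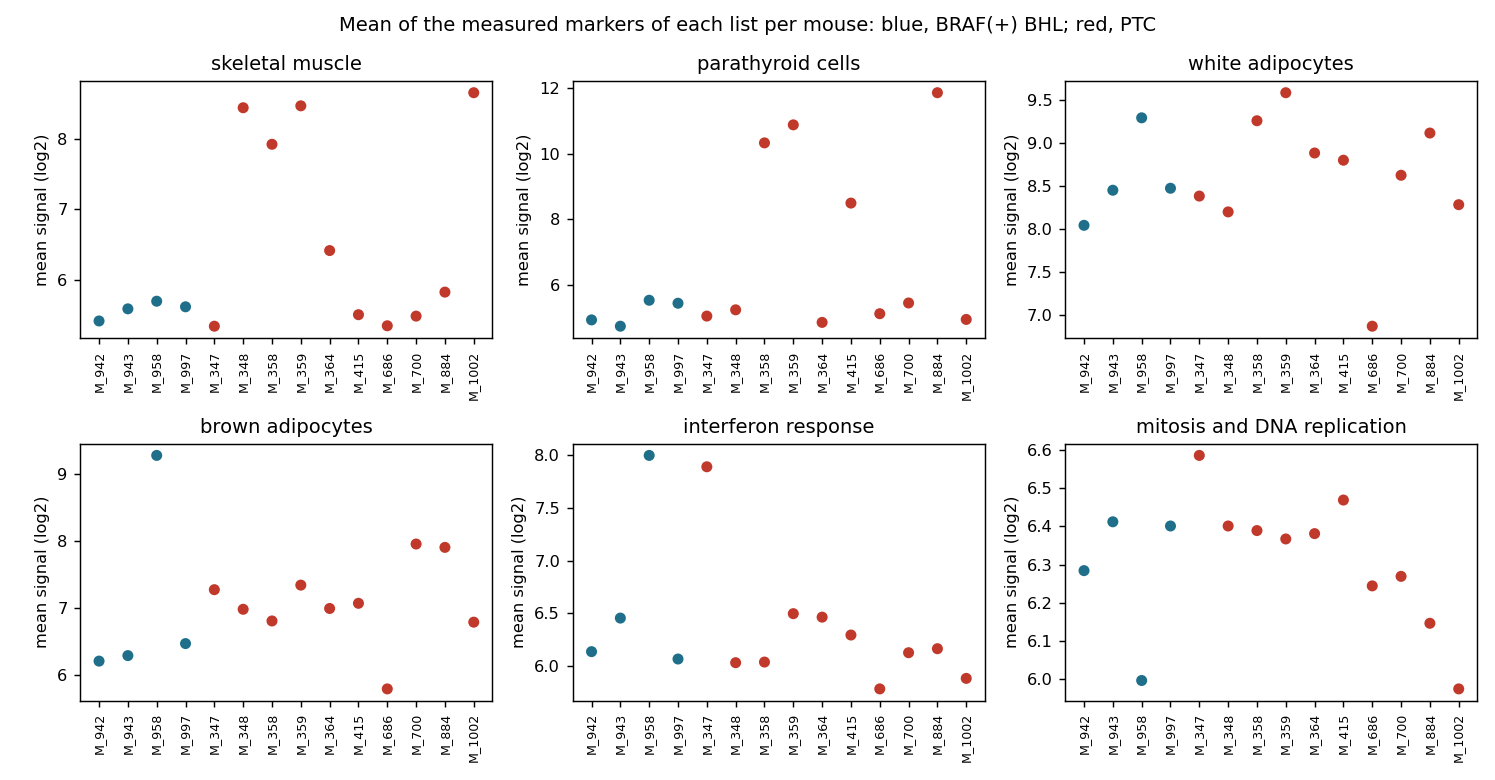
Mean log2 signal (vertical axis) over the measured members of 6 gene lists in each of the 14 mice (horizontal axis), BRAF(+) BHL in blue and PTC in red. Skeletal muscle is at 7.9 or above in 4 PTC mice and 5.7 or below in BHL, and the interferon response is high in BHL M_958 and PTC M_347.

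Markers of neighbouring tissues differed more between mice than any thyroid list. All 17 tested skeletal muscle genes (18 measured) had a higher mean in PTC, with a median of 1.13, 0 called and 1 at an unadjusted p under 0.05. The list mean was 5.42 to 5.70 in BHL. In PTC it was 8.44, 7.92, 8.46 and 8.65 in mice M_348, M_358, M_359 and M_1002, 6.41 in M_364, and 5.34 to 5.82 in the other 5. The fast myosin *Myh1* was 3.83 to 4.17 in BHL and 3.81 to 9.60 in PTC (difference 2.22, SE 1.19), and skeletal actin (*Acta1*) 6.33 to 6.99 and 6.36 to 10.72 (1.49, SE 1.01). Parathyroid hormone (*Pth*) was 3.12 to 3.33 in BHL and in PTC 11.90, 12.20, 9.77 and 12.77 in M_358, M_359, M_415 and M_884 and 3.0 to 3.37 in the other 6 (difference 3.33, SE 2.01). Chromogranin A (*Chga*), of neuroendocrine secretory granules, was above 9.7 in the same 4 mice and at most 7.26 in the other 10. The same markers were present outside PTC: the mean of *Pth* was 7.70 in *BRAF*(-) BHL and 5.35 in *BRAF*(-) AT, and that of *Myh1* 5.35 and 4.96. Adipocyte markers pointed both ways. The white list (8 tested) had a median of 0.06, and *Ucp1*, the uncoupling protein of brown fat, was 11.56 in M_958, 4.46 to 4.99 in the other BHL mice and 4.77 to 9.52 in PTC. The part of these tissues in the values of other genes was not tested. With the muscle and adipocyte means as covariates the count of called probe sets was again 0. *Grp* then differed by 1.45 in place of 1.46, but no C cell or parathyroid mean was among the covariates. *Pygm* differed by 0.65 in place of 1.13, and it is itself a member of the muscle list.

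**Figure D5:**
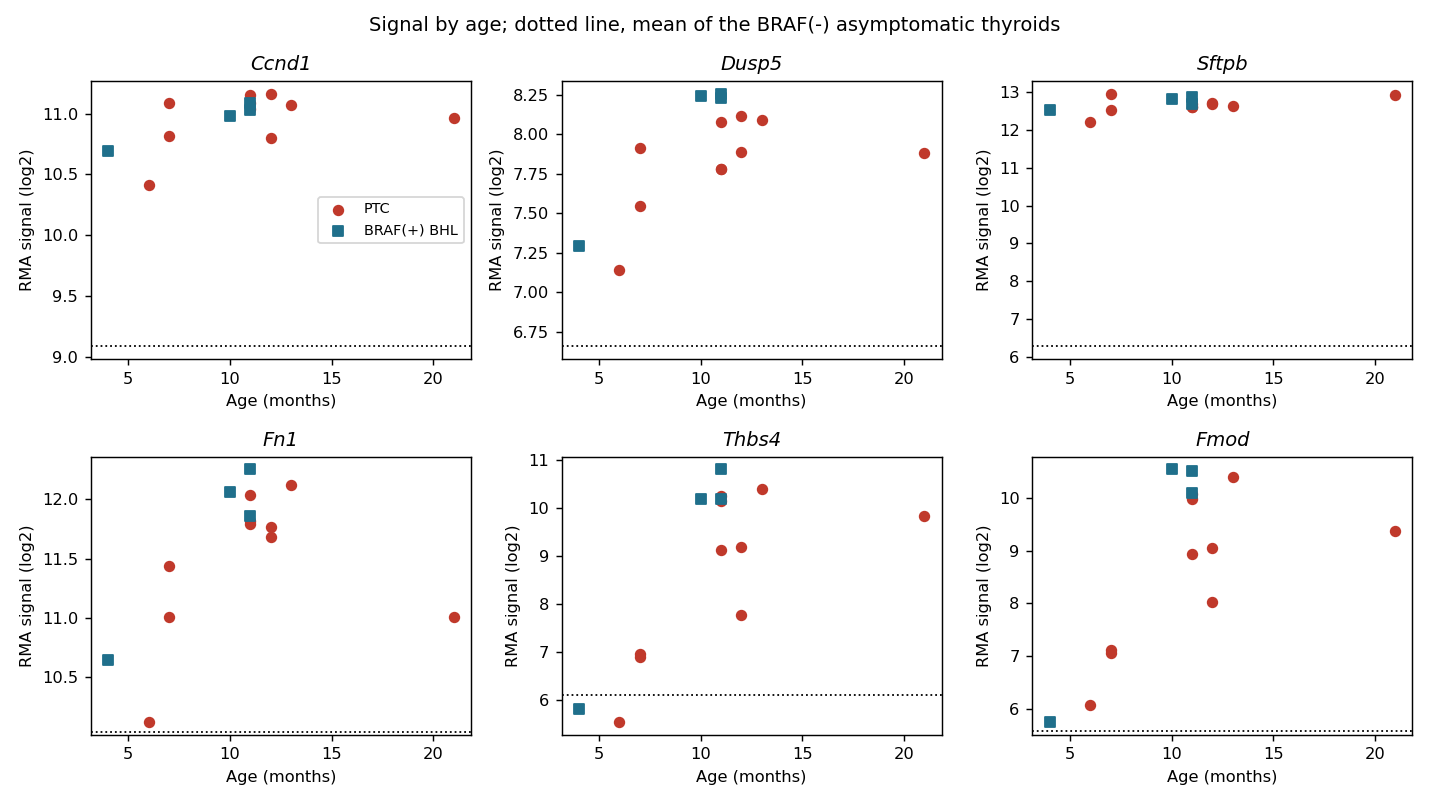
RMA signal on a log2 scale (vertical axis) of 6 genes against age in months (horizontal axis), PTC as red circles and BRAF(+) BHL as blue squares; the dotted line is the mean of BRAF(-) AT. Thbs4 and Fmod are at 7.11 or below in the 4 mice under 9 months and at 7.78 or above in the 10 older mice, while Sftpb is above 12.2 in all 14.

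A further set of genes was described after their values were seen, because their range across both lesions was wide and differed between young and older mice. The young mice are the males M_686, M_700 and M_958 and the female M_884, and the 3 of PTC are of line tg2. The parts of age, sex and line were not tested. Thrombospondin 4 (*Thbs4*) and fibromodulin (*Fmod*) are matrix proteins of tendon and other dense connective tissue. *Thbs4* was 10.21, 10.81, 5.81 and 10.19 in BHL mice M_942, M_943, M_958 and M_997, and 5.54 to 6.97 in the 3 young PTC mice against 7.78 to 10.41 in the 7 older ones. *Fmod* was 10.09, 10.51, 5.74 and 10.54 in the same BHL mice, and 6.07 to 7.11 in the young and 8.02 to 10.40 in the older PTC mice. The young mice of both lesions thus held the lowest values of both genes, beside *BRAF*(-) AT means of 6.11 (*Thbs4*) and 5.56 (*Fmod*). For *Fmod* the young PTC mice all lay above that mean. Among mice of 9 months and over, the mean of *Thbs4* was 10.40 ± 0.36 (SD, n = 3) in BHL and 9.54 ± 0.92 (n = 7) in PTC, and that of *Fmod* 10.38 ± 0.25 and 9.40 ± 0.82. The model gave differences of -0.73 (SE 0.75) and -0.72 (SE 0.65), neither of which was called. Chondroadherin (*Chad*) and cartilage oligomeric matrix protein (*Comp*) followed, with 5.60 and 5.26 in M_958 against 7.69 or more and 8.18 or more in the other BHL mice. Lubricin (*Prg4*), the joint lubricant, did not set M_958 apart, at 8.07 beside 7.99 to 9.04, and was 5.54 to 9.50 in PTC. With only the mice of 9 months and over the count of probe sets called between PTC and *BRAF*(+) BHL was 0, as it was without M_347 and M_958.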

How the data were processed

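Thyroid RNA of 38 mice was measured, 1 array each. The deposited values are log2 signals of 35556 probe sets, to which the authors had applied RMA, of a version that the sources used here do not give. No array was left out and no column of another series was present. Arrays have no read depth, and precision is limited by how many mice each group holds. Platform annotation named 21789 probe sets with 1 symbol; 1621 had several and 12146 were not listed, so control probe sets are not marked and may remain among the latter. A gene was represented by its probe set of highest mean over the 38 mice.

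The model was fitted with limma 3.58.1 (lmFit, eBayes; R 4.3.3) to all 38 mice, in 6 groups plus sex, over the 4388 probe sets of the flat filter, with Benjamini-Hochberg adjustment and a threshold of 0.05. A single value (*Braf*) was tested by exact permutation over 1001 arrangements. Sex is a term of the model, and ages are those of the labels, which differ from the study's age classes for older PTC and BL mice. Figures were drawn in Python 3.11.15 with matplotlib 3.10.9. Scripts were tested on simulated data.

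Named genes were *Braf*, up to 15 in each direction (those past the threshold, then those with an unadjusted p under 0.05), the 18 study genes, follicular markers, the largest differences of each list, and probe sets without overlap; others are said to be chosen later. The members and 39 gene lists were chosen with earlier results of these data known. Lists were described by counts and medians and not tested. Alternatives changed the filter, the mice, sex, age, centring, moderation, array weights and tissue covariates, and left out each mouse in turn.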

Additional observations from a re-analysis of the deposited data

Results flagged for a closer look

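Within each lesion, 98 sets of values of named genes were searched for a single mouse far from its group, and 17 were found. The search used Dixon's criterion, which chance meets in about 1 in 20. Some genes were chosen after their values were seen, and several interferon genes repeat the same mice. The 17 of 98 therefore cannot be set against that share. In *BRAF*(+) BHL every mouse found was M_958, the only male and the only mouse under 9 months of its group. It was high for *Oasl2* (10.315), *Rtp4* (9.444), *Ucp1* (11.557) and *Bche* (6.646). It was low for *Thbs4* (5.806), *Fmod* (5.741), *Chad* (5.601), *Dusp5* (7.295) and *Egr1* (8.204). M_958 had list means of 9.27 for brown and 9.30 for white adipocytes, against 6.21 to 6.47 and 8.05 to 8.48 in the other BHL mice. Its fibroblast mean was 8.45, against 9.37 to 9.94. The parts of sex, age and tissue content in these values were not tested.

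In PTC, M_347 was high for the interferon genes *Oasl2* (9.223), *Ifit1* (8.532) and *Irf7* (8.681). The young male M_700 was low for *Lyve1* (6.649) and *Ccnd1* (10.412) and high for *Slc5a8* (9.992). The young male M_686 was low for *Grp* (8.746), the only PTC value within the range of the BHL mice, and for the adipocyte hormone *Adipoq* (5.976). *Rtp4*, an interferon-induced gene, *Adipoq*, *Thbs4*, *Fmod* and *Chad* were added after their values were seen.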

How the results depend on the processing

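The count of probe sets called between PTC and *BRAF*(+) BHL was 0 under every alternative, including each mouse left out (0 to 0). Its count at an unadjusted p under 0.05 ranged from 69 (without BHL M_997) to 272 (without BHL M_942) over fits of the same 4388 probe sets. That count was 2617 of 35556 probe sets without the flat filter, and 229 of 3500 with the filter over the 14 mice. The total between *BRAF*(+) BHL and AT, 228 higher and 136 lower, was 16 without the flat filter and 16 without the sex term, 27 with the filter over the 14 mice, 48 with only the mice compared, 127 in females, 854 with array weights and 56 with muscle and adipocyte covariates; leaving out 1 mouse gave 0 to 502. Added after seeing the data, mice of 9 months and over, a fit that also leaves out AT M_779, gave 0. With arrays centred on the median, 145 of 316 calls were higher in BHL. The cause of these shifts was not tested. The *Braf* difference, -0.05, was 0.061 without the 3 PTC mice under 9 months, and -0.16 to -0.003 with 1 mouse left out. None of 48 named genes was called under any setting; leaving out 1 mouse turned the sign in 34 of 672 values. With females alone 7 signs turned. No paired analysis was possible because mouse numbers are not shared between groups.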
